A study of Mus musculus with 2 samples.

Results

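Imprinted genes are expressed mainly from the chromosome copy inherited from one parent, because DNA methylation set in the germ line differs between the parental copies. Many of them control fetal and postnatal growth, and several act on progenitor cells and on fat tissue. They tend to lie in clusters in which a long noncoding RNA and protein-coding genes share one control region and are expressed from opposite parental copies.

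The 10 imprinted growth genes H19, Meg3, Dlk1, Peg3, Plagl1, Cdkn1c, Mest, Grb10, Gnas and Ndn were taken by gene name from the 26082 genes of the expression tables. They were selected on the FPKM values and counts of these same 2 libraries, which were known when the names were listed, so their differences are a description and are not tested. The libraries came from fibro-adipogenic progenitors (FAPs), stromal cells of muscle with the capacity to form adipocytes, and the comparison asked what raising TGFBR3, a co-receptor of the TGF-β family, does to them. Both groups were primary mouse FAPs labelled WT and under adipogenic differentiation, in a medium that held IBMX at 0.5 mM, insulin at 10 µg/ml, dexamethasone at 0.25 µM and 20% FBS. One group was transfected with TGFBR3 overexpressing plasmids and the other with the vector. The study's methods describe FAPs sorted from the hind-limb muscle of mice, and the age of the animals, the time in medium and any pooling are not given in the labels for these cells. There was 1 library per group, so no value below has a replicate or an SD, and the intervals are exact Clopper-Pearson 95% intervals that cover counting error only.

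The deposited counts added up to 62321027 for the TGFBR3 overexpression label and to 83779203 for the vector control label. Tgfbr3 itself had 16372 and 21245 counts, or an FPKM of 36.9 and 35.1, a log2 ratio of 0.07 with an interval from 0.04 to 0.10. Its RNA was thus not raised beyond the shift of the median gene, which was 0.13 on the log2(FPKM + 1) scale and 0.15 on the count scale over the 10626 genes that reached an FPKM of 1 in each library. This gene does not bear out the labels, and each library is called by its label throughout. The ratio also moved with base composition, from a median of 0.45 in the lowest to −0.25 in the highest of 20 bins of exonic GC content. The rRNA gene CT010467 (ENSMUSG00000106106) had an FPKM of 1244.2 against 5630.8 in the control, and the part of RNA quality or rRNA removal in any result was not tested. Of 8 FAP markers 7 had an FPKM of at least 1, and they did not share a direction. Pdgfra (30.5 and 32.6), Pdgfrb (88.9 and 94.3), Thy1 (114.2 and 117.5) and Dcn (18.2 and 16.4) were nearly level in FPKM, Ly6a (1012.7 and 706.4) was higher in the library labelled TGFBR3 overexpression, and Cd34 (20.6 and 25.7) and Col1a1 (467.5 and 870.0) were lower. Dpp4 had 21 and 0 counts.

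3 of the 10 genes carry miRNA hairpins in their transcripts or introns. Their mature sequences are shown because the host RNA of each was measured. In these lines from RefSeq on GRCm38.p6, written 5′ to 3′, capitals mark the seed, bases 2 to 8.
H19, miR-675-5p: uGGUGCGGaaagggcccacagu
H19, miR-675-3p: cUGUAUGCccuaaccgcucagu
Meg3, miR-770-5p: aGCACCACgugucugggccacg
Meg3, miR-770-3p: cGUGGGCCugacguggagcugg
Meg3, miR-1906: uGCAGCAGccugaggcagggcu
Mest, miR-335-5p: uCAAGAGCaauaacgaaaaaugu
Mest, miR-335-3p: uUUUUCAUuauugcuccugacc
No seed was shared between these miRNAs. The H19 pair lies at chr7:142577078-142577133 on the minus strand. The libraries were made from poly(A) RNA, so they count the host RNAs and not the mature miRNAs.

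The promoters of Dlk1, Meg3 and Dio3 are shown because these genes lie in one imprinted domain on chromosome 12 and were all lower in the library labelled TGFBR3 overexpression, as described below. Each run holds 300 bases of the plus strand around the RefSeq start on GRCm38.p6. Capitals mark matches on either strand to the TATA box TATAAA, the CCAAT box CCAAT, the GC box GGGCGG or the E box CACGTG, and neighbouring matches may overlap.
Dlk1, chr12:109452573-109452872: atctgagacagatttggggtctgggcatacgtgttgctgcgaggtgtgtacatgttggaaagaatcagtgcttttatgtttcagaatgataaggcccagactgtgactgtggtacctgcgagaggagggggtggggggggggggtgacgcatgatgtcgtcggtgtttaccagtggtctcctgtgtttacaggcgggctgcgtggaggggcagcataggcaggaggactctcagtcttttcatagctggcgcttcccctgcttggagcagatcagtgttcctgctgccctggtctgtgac
Meg3, chr12:109540746-109541045: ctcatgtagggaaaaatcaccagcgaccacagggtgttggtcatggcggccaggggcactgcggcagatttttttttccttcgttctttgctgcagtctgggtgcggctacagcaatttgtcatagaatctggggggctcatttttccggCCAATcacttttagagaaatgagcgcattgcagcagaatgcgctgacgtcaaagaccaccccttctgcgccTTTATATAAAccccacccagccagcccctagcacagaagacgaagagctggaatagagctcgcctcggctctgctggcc
Dio3, chr12:110278980-110279279: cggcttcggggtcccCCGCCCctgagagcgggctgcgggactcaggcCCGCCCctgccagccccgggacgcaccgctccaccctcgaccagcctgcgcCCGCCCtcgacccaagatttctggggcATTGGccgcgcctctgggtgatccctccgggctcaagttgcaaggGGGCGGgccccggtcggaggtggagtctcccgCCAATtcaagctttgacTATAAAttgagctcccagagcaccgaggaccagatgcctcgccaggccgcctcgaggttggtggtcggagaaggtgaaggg
The Dlk1 window held none of the 4 motifs, the Meg3 window held 2 overlapping TATA matches and 1 CCAAT match, and the Dio3 window held 1 TATA, 2 CCAAT and 4 GC box matches. Of 32817 promoters of the same length, 13.6% held TATAAA, 37.4% CCAAT, 35.6% GGGCGG and 7.15% CACGTG. The windows shown held 9, 13 and 25 CpG sites, against a median of 7 over all promoters. A further Meg3 window, at chr12:109545148-109545447 and not shown, held 1 CpG site and none of the 4 motifs. Promoters were matched for 8 of the 10 genes, and H19 and Cdkn1c had no entry.

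The 10 genes differed widely in level. Gnas was the highest, with an FPKM of 137.7 in the library labelled TGFBR3 overexpression against 136.1 in the control, followed by Ndn (28.0 and 35.1) and Grb10 (13.1 and 12.7). Cdkn1c, H19, Meg3 and Dlk1 lay between 1.1 and 4.01. Peg3, Plagl1 and Mest stayed below 1 in both libraries. All 10 genes had more than 3 counts in each library. Together they took 0.202% and 0.207% of all counts, of which Gnas alone made up 84.5% and 82.4%.

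**Figure D1:**
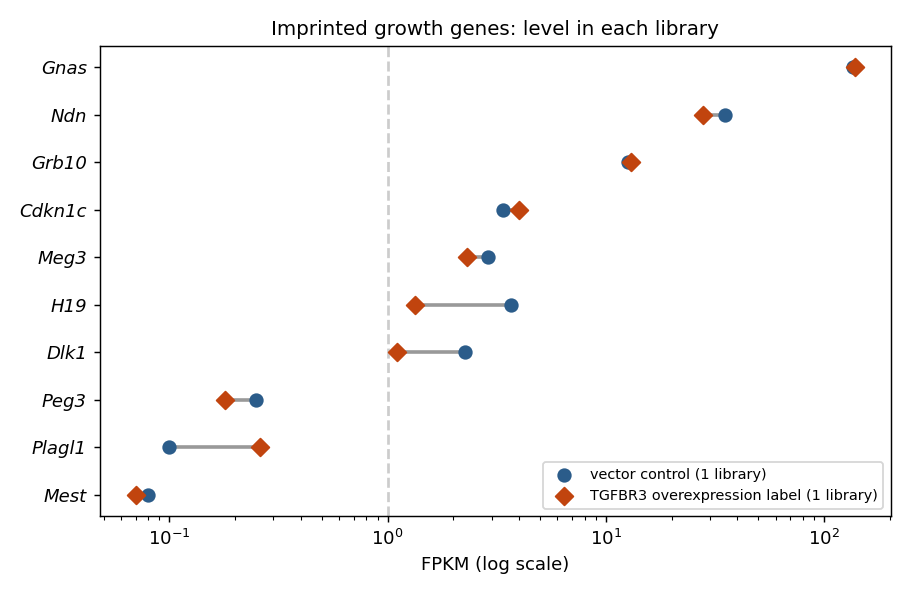
FPKM of the 10 genes on a log axis, 1 point per library (circle, vector control; diamond, TGFBR3 overexpression label), with a dashed line at an FPKM of 1. H19 and Dlk1 show wide gaps with the control higher, Plagl1 shows a wide gap the other way at an FPKM below 1, and Gnas and Grb10 nearly coincide.

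H19 and Dlk1 were the genes with the lowest ratios, and Ndn and Meg3 were lower by less. Plagl1 was higher, Cdkn1c slightly so, and Gnas and Grb10 were nearly level. On the log2(FPKM + 1) scale 6 genes were lower and 4 were higher, and 0 of 10 reached 2-fold in either direction, where 0.475% of all 26082 genes were at least 2-fold lower and 1.41% at least 2-fold higher. The plain ratio of counts, scaled by the library total behind the FPKM values, has no pseudocount and so does not shrink genes of low level. On that scale H19 and Dlk1 were at least 2-fold lower and Plagl1 at least 2-fold higher, against a background of 4.22% and 13.4% of 17985 genes with more than 3 counts in both libraries. Centring on the median gene changed the split of all genes from 124 lower and 369 higher to 195 and 275, and put H19 alone past 2-fold. Because the genes were listed with these values known, nothing is read from those counts. The median of the 10 genes was −0.05 on the log2(FPKM + 1) scale, or −0.17 after centring on the median gene, and −0.30 on the count scale, beside a median of 0.03 over all genes on the first scale and of 0.23 over the 17985 genes on the count scale. In bulk RNA fewer cells of a type and less RNA per cell cannot be told apart.

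**Figure D2:**
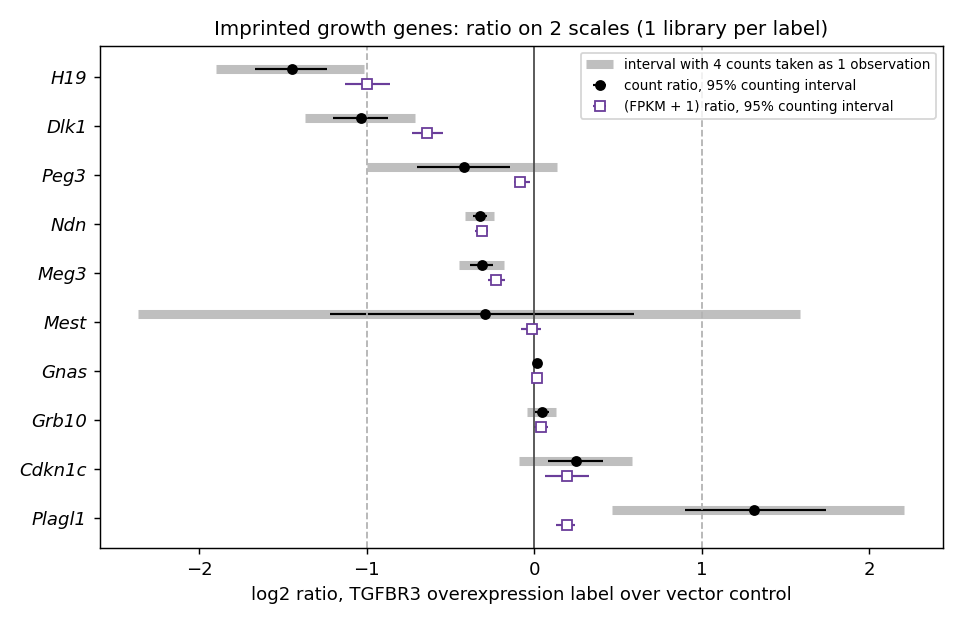
Log2 ratio of each gene, library labelled TGFBR3 overexpression over vector control, by counts (black circles) and by FPKM + 1 (open squares), with 95% counting intervals and, as grey bars, the count interval with 4 counts taken as 1 observation. Dashed lines mark 2-fold. The circles of H19 and Dlk1 lie beyond the lower line and that of Plagl1 beyond the upper line, while the squares of all 10 genes lie inside both.

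The noncoding RNAs come first. H19 (ENSMUSG00000000031, chr7:142575529-142578143 in mm10, minus strand) is a maternally expressed long noncoding RNA that restrains growth and is abundant in the embryo. It had 225 counts and an FPKM of 1.34 in the library labelled TGFBR3 overexpression, against 837 counts and an FPKM of 3.67 in the control. By counts this was 2.73-fold lower, a log2 ratio of −1.45 with an interval from −1.67 to −1.24. On the log2(FPKM + 1) scale the difference was −0.997, just short of 2-fold, and it was −1.12 after centring on the median gene. Once the GC trend was subtracted, the count ratio was −1.38. Of 4115 genes whose mean FPKM was within 2-fold of that of H19, 34, or 0.826%, had an equal or lower ratio on the log2(FPKM + 1) scale. H19 was listed with its ratio known, so this share is a description and not a test. The genes nearest to H19 in that ratio among the 4115 were Spon2 (−1.01), Tnfsfm13 (−1.02), Ece2 (−0.97), Camk2n2 (−0.97) and Gm11520 (−0.97), over 1 library a side. A miR-675 host RNA was thus less abundant in the library labelled TGFBR3 overexpression. The annotated Mir675 gene, which covers 3.41% of the H19 exons, had 1 count in each library. So did Mir770 and Mir1906-1 within Meg3, and the level of miR-675 itself was not measured.

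Meg3 (ENSMUSG00000021268, chr12:109541001-109571726, plus strand) is the maternally expressed noncoding RNA of the Dlk1-Dio3 domain and hosts miR-770. It had 2837 and 4806 counts, and an FPKM of 2.31 and 2.87. The count ratio was −0.31, with an interval from −0.38 to −0.25. This was a smaller difference than that of H19, and of the genes whose mean FPKM reached 1, 2127 lay below Meg3 on the log2(FPKM + 1) scale and 116 below H19. Both genes were listed with their values known, so these ranks are a description too.

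Among the growth regulators that act at the cell surface or in signalling, Dlk1 (ENSMUSG00000040856, chr12:109452823-109463336, plus strand) encodes a paternally expressed transmembrane protein of the Notch ligand family that keeps preadipocytes from maturing. It had 425 and 1188 counts, and an FPKM of 1.1 and 2.27. By counts it was 2.05-fold lower, a log2 ratio of −1.04 with an interval from −1.20 to −0.88, and on the log2(FPKM + 1) scale the difference was −0.64. Dlk1 was close to the 2-fold line by counts and clearly inside it on the other scale.

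Grb10 (ENSMUSG00000020176, chr11:11930508-12038683, minus strand) encodes an adaptor that binds the insulin and IGF1 receptors and dampens their signal. It had 8068 and 10657 counts, an FPKM of 13.1 and 12.7 and a count ratio of 0.04. Gnas (ENSMUSG00000027523, chr2:174284320-174346744, plus strand) encodes the stimulatory G protein subunit that drives cAMP production, along with transcripts of opposite imprinting. It had 106397 and 143155 counts and a count ratio of 0.02. Both genes were slightly below the median gene after centring, at −0.09 and −0.11 on the log2(FPKM + 1) scale, so the sign of their difference depends on the scaling.

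Of the genes that act on the cell cycle, Cdkn1c (ENSMUSG00000037664, chr7:143458339-143461050, minus strand) encodes the maternally expressed cyclin-dependent kinase inhibitor p57. It had 558 and 640 counts, and an FPKM of 4.01 and 3.38. The count ratio was 0.25, with an interval from 0.08 to 0.41. Ndn (ENSMUSG00000033585, chr7:62346569-62350262, plus strand) encodes necdin, a paternally expressed protein that restrains proliferation and adipogenesis. It had 7015 and 11967 counts, an FPKM of 28.0 and 35.1 and a count ratio of −0.33, with an interval from −0.37 to −0.28. Genes with summed counts like those of Cdkn1c had a median count ratio of 0.26. Centring on the median gene left Cdkn1c at 0.07 on the log2(FPKM + 1) scale. With 4 counts taken as 1 observation its interval spanned 0 (−0.09 to 0.58), so opposite directions in this growth-restraining pair are not resolved. With the GC trend removed the count ratios were 0.54 for Cdkn1c and −0.73 for Ndn.

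The zinc finger genes and Mest were barely expressed. Plagl1 (ENSMUSG00000019817, chr10:13060504-13131694, plus strand), a paternally expressed transcription factor, had 137 and 75 counts, an FPKM of 0.26 and 0.10 and a count ratio of 1.31, with an interval from 0.90 to 1.74. Peg3 (ENSMUSG00000002265, chr7:6703892-6730431, minus strand), also paternally expressed, had 170 and 310 counts, an FPKM of 0.18 and 0.25 and a count ratio of −0.42, with an interval from −0.70 to −0.15. Mest (ENSMUSG00000051855, chr6:30723547-30748465, plus strand), a paternally expressed gene of the α/β-hydrolase fold linked to fat cell size, had 18 and 30 counts and a count ratio of −0.29, with an interval from −1.22 to 0.60. A difference in Mest was therefore not detectable at this depth, and 23.1% of its exon bases overlap the antisense gene Copg2, which had 2695 and 3240 counts. The strand setting of the counting is not given in the sources used here, so reads of the pair may not be told apart.

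Precision differed between the genes. The deposited counts pile up at multiples of 4, with 913 and 930 genes at a count of 4 but 458 and 416 at 3 and 323 and 271 at 5, so single counts are not independent and the intervals above are too narrow. With 4 counts taken as 1 observation, H19 (−1.90 to −1.02), Dlk1 (−1.37 to −0.71), Ndn (−0.41 to −0.24) and Meg3 (−0.45 to −0.18) kept intervals below 0 and Plagl1 (0.46 to 2.21) one above it. The intervals of the other 5 genes spanned 0. Beside genes of like summed counts, H19 and Dlk1 lay under the 10th percentile of the count ratio, which was −0.49 and −0.46, and Plagl1 lay under the 90th percentile of 1.43.

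**Figure D3:**
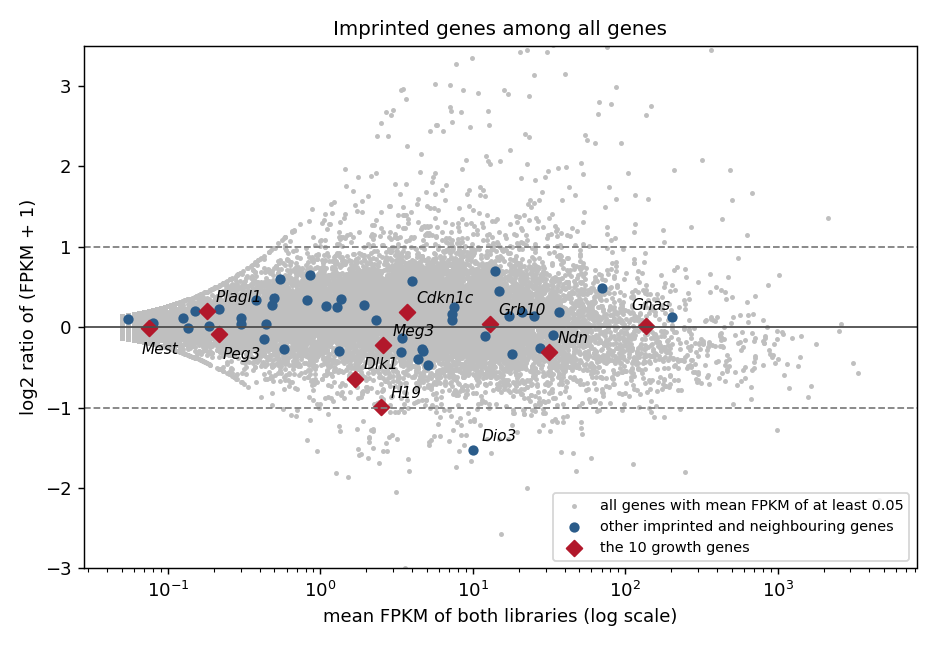
Log2 ratio of FPKM + 1 against mean FPKM (log axis) for genes whose mean FPKM was 0.05 or more (grey), with the 10 genes as red diamonds and other imprinted or neighbouring genes as blue circles; dashed lines mark 2-fold and 18 genes lie above the axis limit. H19 sits at −0.997 on the lower line, and Dio3 at −1.52 lies below it.

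Genes expressed from either parental copy were found in both directions. By textbook imprinting, H19, Meg3, Cdkn1c and Grb10 are mainly maternally expressed, and 2 of these 4 were lower by counts, with a median of −0.14. Dlk1, Peg3, Plagl1, Mest and Ndn are mainly paternally expressed, and 4 of these 5 were lower, with a median of −0.33. Among those 4, Mest and Peg3 had intervals that spanned 0 with 4 counts taken as 1 observation. Over the 17985 genes with more than 3 counts in both libraries, 35.4% were lower by counts. The 10 genes were listed with their values known, so nothing is read from the counts by parental copy. Gene counts do not separate the parental copies, so whether imprinting itself differed was not measured.

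The domains around the 10 genes were then followed on the count scale, with neighbours below an FPKM of 1 included after their values were seen. In the Dlk1-Dio3 domain on chromosome 12, 5 of 6 genes were lower and 2 of them, Dlk1 and Dio3, at least 2-fold, against the background of 4.22%. Of the 17985 genes with more than 3 counts in both libraries, 35.4% were lower by counts, and this share stands beside the counts of each domain. Each domain includes genes from the 10, which were listed with their values known, so nothing is read from the domain counts. Dio3, the deiodinase that inactivates thyroid hormone, had 647 and 2882 counts and an FPKM of 4.69 and 15.4. It was 3.27-fold lower, a count ratio of −1.71 with an interval from −1.83 to −1.59, and on the log2(FPKM + 1) scale the difference of −1.52 was the lowest of the imprinted lists. Of the 11213 genes whose mean FPKM reached 1, 26 lay lower on that scale. This rank is a description, because the lists were chosen with earlier results known. Between Dlk1 and Dio3, the noncoding RNA Rian, host of 3 annotated miRNA hairpins, had 6394 and 11421 counts and a count ratio of −0.39, and Mirg, host of 14 hairpins, had 183 and 343 counts and a ratio of −0.46. Rtl1, with 19 and 24 counts, had a ratio of 0.11 and an interval from −0.84 to 1.04. By plain counts Dlk1 and Dio3 thus had lower ratios than the noncoding RNAs between them. With the GC trend removed the count ratio of Rian was −1.003, beside −1.03 for Dlk1 and −1.56 for Dio3. On the log2(FPKM + 1) scale without that removal, Rian (−0.30) lay above Dlk1 (−0.64). With the GC trend removed on the log2(FPKM + 1) scale, Rian (−0.75) lay below Dlk1 (−0.64).

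The Igf2-H19 domain held 3 genes, all lower by counts, with a median of −0.73. Igf2, the paternally expressed growth factor, had 169 and 381 counts, an FPKM of 0.43 and 0.72 and a ratio of −0.73 with an interval from −0.997 to −0.462. Mrpl23, a mitochondrial ribosomal protein gene beside H19, had 1216 and 2315 counts and a ratio of −0.48. Igf2 shares 62.8% of its exon bases with the read-through gene model Gm49394 on the same strand, and its value is uncertain where the counting split or dropped such reads.

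The Kcnq1-Cdkn1c domain, next to it on chromosome 7, had 9 of 10 genes higher by counts and a median of 0.20, close to the 0.23 of all genes with more than 3 counts in both libraries, most of which were also higher. Kcnq1ot1, the noncoding RNA that silences this domain on the paternal copy, had 186 and 75 counts and a ratio of 1.76, at an FPKM of 0.03 and 0.01. Phlda2, which restrains placental growth, had 24 and 12 counts and a ratio of 1.45. Cd81 (0.13), Nap1l4 (0.20) and Tssc4 (0.20) were higher by little, Ascl2 had a ratio of 0.77 on 114 and 91 counts, and Slc22a18 a ratio of 0.10 with an interval from −0.03 to 0.23. Osbpl5 alone was lower, at −0.26 on 8323 and 13598 counts.

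In the Ndn-Snrpn domain 3 genes were lower and 3 higher. Beside Ndn, Peg12 had a ratio of −0.52 on 196 and 384 counts and Snrpn, a splicing factor gene, one of −0.11 on 1705 and 2513 counts. Snhg14, the long noncoding RNA that runs through the domain, had 162 and 56 counts and a ratio of 1.98, and the ubiquitin ligase gene Ube3a, which Snhg14 overlaps in antisense, had 1816 and 1724 counts and a ratio of 0.52, which turned to −0.09 with the GC trend removed. Snhg14 and Kcnq1ot1 were thus both over 2-fold higher by counts, where 13.4% of genes were, at an FPKM of at most 0.09. At the other single-gene domains, Phactr2 beside Plagl1 had a ratio of 0.45 that came to 0.05 with the GC trend removed, Copg2 beside Mest one of 0.18 that turned to −0.27, and Zim1 beside Peg3 one of 0.68 on 54 and 46 counts.

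**Figure D4:**
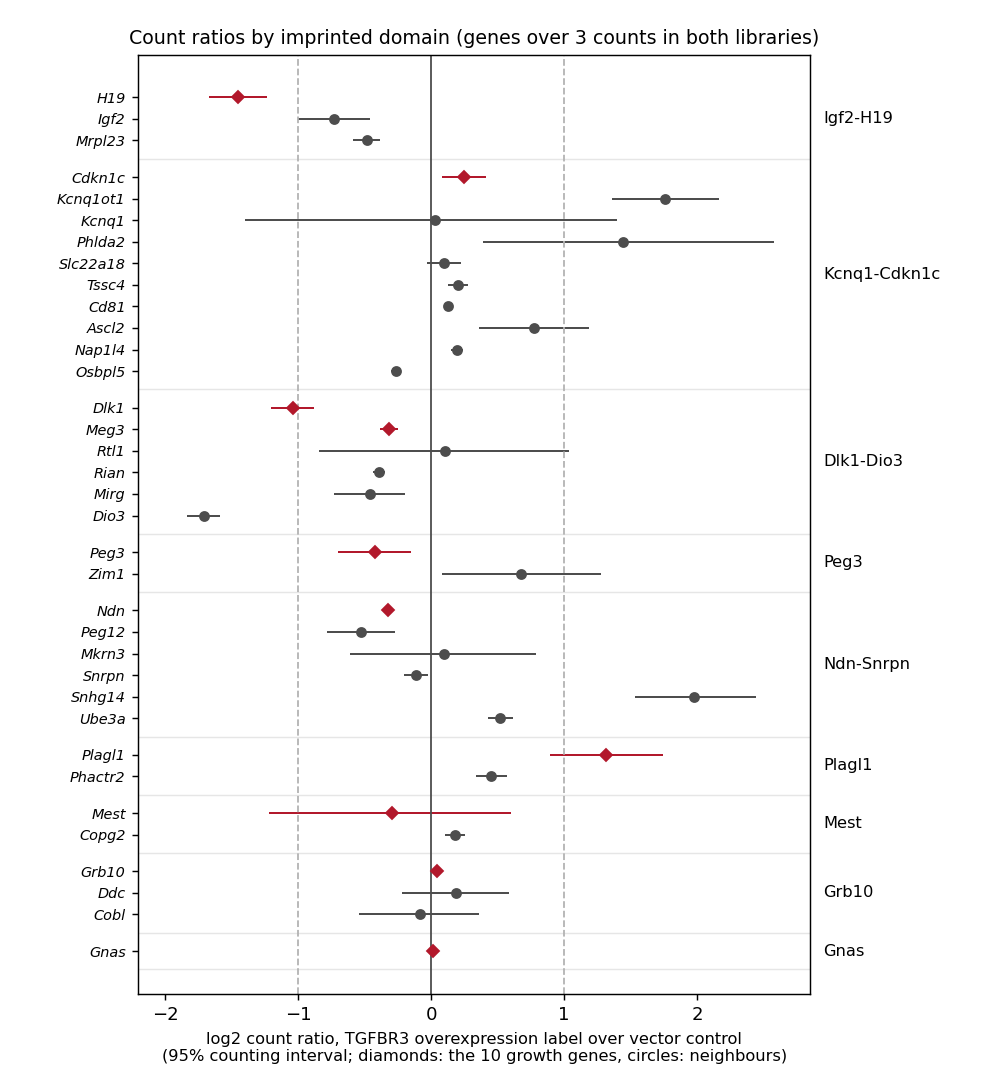
Log2 count ratio with its 95% counting interval for the genes of each imprinted domain with more than 3 counts in both libraries; diamonds are the 10 growth genes and circles their neighbours, and dashed lines mark 2-fold. All 3 genes of Igf2-H19 and 5 of 6 of Dlk1-Dio3 lie below 0, and 9 of 10 of Kcnq1-Cdkn1c lie above it.

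Over all 27 measured neighbours, 15 were higher and 10 lower on the log2(FPKM + 1) scale with a median of 0.03, and Dio3 alone was at least 2-fold lower. Of 30 other imprinted genes, 21 were higher and 6 lower, with a median of 0.13. Over all genes the median was 0.03, and over those that reached an FPKM of 1 in each library it was 0.13. With the GC trend removed, the median of the other imprinted genes was −0.05 over 16 genes. On this scale 0 reached 2-fold in either direction, and by counts 6 were at least 2-fold higher and 0 lower, against the background of 13.4% and 4.22%. Among those whose FPKM reached 1 in at least 1 library, the largest differences on the log2(FPKM + 1) scale were those of Tfpi2 (0.70), a serine protease inhibitor, Herc3 (0.65), a ubiquitin ligase gene, and Mcts2 (0.58), a retrogene. Over all genes 32.3% lay below 0 on this scale, and the lists are described without a test.

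Genes linked to the setting, upkeep or removal of DNA methylation and imprints, Tet1, Tet2 and Tet3 among them, were measured as well. Of 18 such genes 15 were higher and 2 lower on the log2(FPKM + 1) scale, where 32.3% of all genes were lower, and 0 reached 2-fold. Their median was 0.16, beside 0.03 over all genes and 0.13 over the genes that reached an FPKM of 1 in each library. Eed, a Polycomb subunit, had 2273 and 1833 counts and a difference of 0.66. The Polycomb methyltransferase gene Ezh2 had 587 and 415 counts and a difference of 0.46, and Zfp445, a zinc finger protein of imprinting control, had 2157 and 1657 counts and one of 0.63. With the GC trend removed the difference was 0.34 for Eed and 0.28 for Zfp445.

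Partners of the 10 genes in insulin, IGF, Notch and cell cycle signalling showed no common direction, with 12 of 22 higher and 10 lower and a median of 0.04. Hes1, a transcription factor switched on by Notch, had 361 and 1101 counts, an FPKM of 2.60 and 5.84 and a difference of −0.93, and the count ratio was −1.16. Irs1, an adaptor of the insulin receptor, differed by 0.55, and the receptor gene Notch2 by 0.52. Of 18 genes of the cAMP branch downstream of Gnas, 14 were higher and 4 lower, where 32.3% of all genes were lower. Their median was 0.15, beside 0.03 over all genes and 0.13 over the genes that reached an FPKM of 1 in each library. The largest differences were in Prkar2b (0.77), a protein kinase A regulatory subunit, Nr4a1 (0.66) and Crem (0.56), both cAMP-responsive transcription factor genes. Both libraries came from medium with IBMX, which blocks the breakdown of cAMP. Of 10 proliferation genes, 5 were higher and 5 lower, with Pcna at 0.37, Birc5 at −0.35 and Mki67 at 0.29.

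Markers of other cell types did not all differ in the same direction. All 5 measured adipocyte markers were lower in the library labelled TGFBR3 overexpression, 3 of them at least 2-fold on the log2(FPKM + 1) scale. On that scale 32.3% of all genes were lower and 0.475% at least 2-fold lower. The differences of the 5 markers were −1.29 for Cfd, −1.15 for Car3, −1.07 for Adipoq, −0.47 for Plin1 and −0.14 for Fabp4. Their summed FPKM was 34.9 against 69.5. The tenocyte and chondrogenic markers summed to 6.85 and 8.52, with Scx at −0.80 but Mkx at 0.11, and the Schwann cell markers to 2.02 and 3.80. The other lists were low in both libraries, with sums of 1.62 and 1.30 for myogenic, 2.46 and 2.06 for endothelial and 0.78 and 0.49 for macrophage markers, among which Adgre1, Tyrobp and Fcer1g had 0 counts. The part of these cell types in the values of the imprinted genes was not tested.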

How the data were processed

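RNA of 1 library per group was compared, without a test. The authors deposited raw counts per gene and FPKM values rounded to 2 decimals. The paper names STAR, FeatureCounts, mm10 and a KC-Digital stranded kit. The submitters' processing notes name cutadapt 1.9, HISAT2 2.2.1, StringTie 2.1.6, DESeq2 and edgeR, and the labels describe dUTP-marked poly(A) libraries. Which of these made the tables is not settled by the sources used here, and FPKM depends on the length and total they used.

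FPKM + 1 was compared on the log2 scale as the main measure, with a threshold of 2-fold. The count ratio used the totals implied by the FPKM values, 67868757 and 92424343, and a floor of 3 counts. Positions, exon lengths and GC content came from GENCODE release M21. The GC trend was removed as the median in 20 bins over 11207 genes. Calculations used Python 3.11.15, numpy 2.4.6, pandas 2.3.3 and scipy 1.17.1 and were tested on simulated counts.

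The 10 genes and all lists were chosen with earlier results of these data known. Named genes were the 10 genes, Tgfbr3, neighbours with an FPKM of at least 1, up to 3 genes by size per list among those with an FPKM of at least 1 and the 5 genes nearest to H19. Domain neighbours below that level and markers were named in addition. 6 listed neighbours (Ins2, Klf14, Magel2, Nespas, Th and Zfp264), Lin28b and 5 markers (Lep, Myf5, Myod1, Pax7 and Sox10) were not analysed here. The alternatives changed the pseudocount, filter, centring, unit, threshold, and trends over GC content and length. The count ratio, the exclusion of H19 and of genes with few counts, and the interval with 4 counts as 1 observation were chosen after the data were seen.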

Additional observations from a re-analysis of the deposited data

How the results depend on the processing

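With 1 library per group, no replicate could be left out and no spread exists. No paired analysis was possible because each group has 1 library. The sign of the log2 ratio was kept in every setting run for all of the 10 genes except Grb10 (6 of 10 settings) and Gnas (7 of 10). Settings that only filter genes leave each ratio unchanged, so they keep its sign by construction. H19 ranged from −1.45 to −0.93 and was at least 2-fold lower in 7 of 10 settings. Dlk1 ranged from −1.05 to −0.64 and was so in 3 of 10, and Plagl1, at 0.07 to 1.38, was at least 2-fold higher in 2 of 6.

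The count of the 10 genes at least 2-fold lower, 0 as reported, became 1 with a pseudocount of 0.1, with centring, with CPM + 1 or with the length trend removed, and 2 with plain FPKM, plain counts or a 1.5-fold threshold. The count at least 2-fold higher, 0 as reported, became 1 with plain FPKM or plain counts. The median of the 10 genes, −0.05 as reported, became −0.19 with a pseudocount of 0.1 and −0.25 with plain FPKM. It was −0.17 centred, −0.20 with CPM + 1 and −0.30 with plain counts. For genes with an FPKM of at least 1 or with more than 200 counts it was −0.23. Peg3, Plagl1 and Mest have no value with the GC or length trend removed. The other 7 genes had medians of −0.33 and −0.42 with these trends removed. Their median was already −0.23 before removal, so part of the move from −0.05 comes from leaving 3 genes out.

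Over all genes, 124 lower and 369 higher as reported became 798 and 2061 with a pseudocount of 0.1, 1080 and 2926 with plain FPKM, 195 and 275 centred, 197 and 638 with CPM + 1, 759 and 2406 with plain counts, 608 and 1685 at 1.5-fold, and 6 and 77 at 4-fold. With the GC trend removed 239 were higher. Plain scales keep low genes whose FPKM + 1 ratio is shrunk, which is how they are built. Other causes were not tested.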
